A study of Sus scrofa with 6 samples.

Results

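NOTCH3, PDGFRB, CNN1, CNN2 and TPM4, 5 genes of pig chromosome 2 with known roles in blood vessel wall cells and smooth muscle, were examined. Of these, CNN2 and TPM4 are also made in many other cell types. They were taken by name and by their place on chromosome 2, with no threshold on a measured value but with earlier results of these data known. They are 5 of the 2675 chromosome 2 genes listed in the deposited tables, which list 30139 genes in all. RNA of whole pig embryos recovered at embryonic day 21 was sequenced in 3 parthenogenetic (PA) and 3 control (CN) embryos, all Landrace x Yorkshire x Duroc and otherwise untreated per the labels. PA embryos developed, after transfer to surrogate gilts, from in vitro matured oocytes that an electric pulse had activated without sperm, so they carry maternal genomes only. CN embryos came from natural mating according to the study's methods alone, since the labels do not say how they were conceived. The route of production and the gilts that carried the embryos cannot be told apart from the parental origin of the genome. The study's methods name fewer gilts than embryos for each group, so some embryos of a group may share a gilt. Whole embryos contain many tissues, so fewer cells of a type and less RNA per cell cannot be told apart.

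Mural cells, the pericytes and vascular smooth muscle cells, wrap the endothelial tube of blood vessels. NOTCH3 is the Notch receptor typical of vascular smooth muscle. It is cleaved when a neighbouring cell presents a ligand, and its freed intracellular part joins the DNA-binding protein RBPJ and MAML coactivators in the nucleus. PDGFRB is a receptor tyrosine kinase. It responds to platelet-derived growth factor B, which endothelial cells release, and it is needed to recruit pericytes to growing vessels. Calponins are actin-binding proteins of the contractile apparatus and cytoskeleton. CNN1, the basic calponin, is typical of contractile smooth muscle, whereas CNN2 is made in many cell types. TPM4 encodes tropomyosin 4, a rod-shaped protein that lies along actin filaments of non-muscle and muscle cells. Serum response factor drives many smooth muscle genes through a DNA element called the CArG box.

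In the Sscrofa11.1 build with its NCBI annotation, TPM4 lies at chr2:61453721-61476781 on the minus strand and NOTCH3 at chr2:62364507-62402348 on the plus strand. CNN1 lies at chr2:70183370-70190756 on the plus strand, CNN2 at chr2:77376020-77385594 on the minus strand and PDGFRB at chr2:151155753-151192818 on the minus strand. PDGFRB lies between CDX1, 10023 bases away, and CSF1R, a related receptor kinase of macrophages, 25441 bases away. NOTCH3 overlaps the protein-coding gene LOC100628051 by 500 bases, and LOC100628051 was listed at 0 in all 6 embryos.

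The CArG box was searched for on both strands in the 250 bases before each annotated mRNA start. Of 4293 distinct windows of that length on chromosome 2, 1.14% held one. Among the 5 genes it was found before CNN2, before 2 of the 3 annotated CNN1 starts and before 1 of the 3 annotated TPM4 starts. The windows of NOTCH3 and of both PDGFRB starts held no match to these letters. The sequences are shown because CNN1 and TPM4 each have starts with the element and starts without it, and the transcripts of these starts were quantified separately. Each line gives the 100 bases before a start, 5′ to 3′ on the gene's strand, with the CArG box in capitals.
CNN1, XM_013987363.2 (chr2:70184382-70184481, plus strand): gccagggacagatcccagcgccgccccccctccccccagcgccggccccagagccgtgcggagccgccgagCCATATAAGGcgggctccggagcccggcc
CNN1, NM_213878.1 (chr2:70183270-70183369, plus strand): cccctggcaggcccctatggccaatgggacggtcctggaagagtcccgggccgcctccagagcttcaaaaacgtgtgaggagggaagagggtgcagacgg
CNN2, XM_003353959.3 (chr2:77385595-77385694, minus strand): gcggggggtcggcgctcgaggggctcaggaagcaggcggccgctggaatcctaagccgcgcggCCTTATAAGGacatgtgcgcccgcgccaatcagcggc
TPM4, XM_005661198.1 (chr2:61476782-61476881, minus strand): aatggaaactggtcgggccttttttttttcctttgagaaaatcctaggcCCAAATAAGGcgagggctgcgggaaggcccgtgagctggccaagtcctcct
TPM4, NM_214335.1 (chr2:61470668-61470767, minus strand): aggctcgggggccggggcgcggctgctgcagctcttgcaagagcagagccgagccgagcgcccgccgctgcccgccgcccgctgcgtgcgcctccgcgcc

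The box began 29 bases before the start of XM_013987363.2, 37 bases before the CNN2 start and 51 bases before the start of XM_005661198.1. The same box of CNN1 lies 78 bases before its other downstream start, that of XM_021080565.1. The letters TGGGAA, the core that RBPJ binds, were searched for on both strands in the same windows. They occurred in 24.4% of the chromosome 2 windows and, among the 5 genes, only before XM_013987363.2. A match is a description of letters and was not tested for binding.

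The authors quantified reads with Salmon and deposited, for each of 81496 transcripts, an estimated count and TPM, the scaled transcript abundance, which is a level per transcript length. The total estimated count was 3100284 to 3276414 in CN and 3360478 to 3573406 in PA, of which 82.8% to 92.7% lay on the 6904 annotated transcripts of chromosome 2. The 27425 annotated genes off chromosome 2 held 0.294% to 0.352% of counts, and 92.0% of them were listed at 0 in all 6 embryos, so a 0 there does not show that a gene was silent. Most of the remainder was 1 transcript name without an annotation entry. It held 6.88%, 7.74% and 7.60% of counts in CN1 to CN3 and 16.9%, 10.2% and 8.44% in PA1 to PA3. TPM values of the other genes, and counts scaled to the library total, are relative to a total that includes it. That total holds very few counts of genes off chromosome 2. The values can therefore not be set beside values scaled to a whole transcriptome.

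The cell types could not be checked by their defining markers in these tables. All 11 of the mural and smooth muscle markers looked up, among them ACTA2, MYH11, TAGLN, RGS5, CSPG4 and DES, lie on other chromosomes, and each was listed at 0 in all 6 embryos. The 5 genes are therefore named by their symbols and known roles, and their levels are not read as a number of mural cells.

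All 5 genes were expressed well above the smallest amount taken as detectable. A count of 3 corresponded to 0.840 to 0.968 CPM, a count scaled to the library total, and the lowest count of any of the 5 genes in any embryo was 537, for CNN1 in CN2. Over the 1539 chromosome 2 genes that passed edgeR's filter on low counts, the median TPM was 137. By mean TPM, TPM4 ranked 24 among them, CNN2 64, PDGFRB 258, NOTCH3 489 and CNN1 596. Within single embryos TPM4 exceeded CNN2 in 6 of 6, by 3.12 to 3.92 times, and CNN2 exceeded PDGFRB in 6 of 6, by 2.84 to 4.91 times. PDGFRB exceeded NOTCH3 in 6 of 6 embryos, by 1.70 to 2.09 times. NOTCH3 exceeded CNN1 in 5 of 6, with ratios from 0.974 to 1.48, so these neighbours in the order had overlapping ranges.

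The question put to each gene was whether its RNA differed between embryos with only maternal genomes and biparental controls. None of the 5 genes passed the test in either direction. Among 1652 tested genes, edgeR's quasi-likelihood test with Benjamini-Hochberg adjustment called 6.54% at an adjusted p below 0.05, with 2.12% higher and 4.42% lower in PA. With the study's added threshold of an absolute log2 fold change above 1 it called 2.91%. Of the 5 genes 0 passed either rule, and 0 had an unadjusted p below 0.05, which 21.2% of all genes had. DESeq2 also called 0 of the 5. The TPM ranges of the 2 groups overlapped for all 5 genes, whereas they did not overlap for 21.6% of genes tested.

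NOTCH3, the receptor, had a TPM of 230, 332 and 319 in CN1 to CN3 and of 236, 315 and 321 in PA1 to PA3. The first embryo of each group was low and the other 4 lay close together. The means were 294 ± 55.3 (SD, n = 3) in CN and 291 ± 47.4 (SD, n = 3) in PA, with an exact two-sided permutation p of 0.9, where the smallest p this design allows is 0.1. On counts, the log2 fold change PA over CN was 0.06 with a standard error of 0.11, a 95% interval of -0.20 to 0.31 and an adjusted p of 0.804 by edgeR.

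PDGFRB, the growth factor receptor, had a TPM of 392, 662 and 616 in CN1 to CN3 and of 456, 659 and 641 in PA1 to PA3. The same 2 embryos were low as for NOTCH3, and the groups overlapped throughout. The means were 557 ± 145 (SD, n = 3) in CN and 586 ± 112 (SD, n = 3) in PA (exact permutation p = 0.7). The log2 fold change was 0.15 ± 0.15 (SE), with a 95% interval of -0.21 to 0.50 and an adjusted p of 0.636 by edgeR. This was the widest interval of the 5 genes, and it reached up to a rise of 41.9%.

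CNN1, the calponin of contractile smooth muscle, had a TPM of 236, 233 and 222 in CN1 to CN3 and of 206, 213 and 239 in PA1 to PA3. PA3 was the highest of all 6 embryos and the other 2 PA embryos were the lowest. The means were 231 ± 7.35 (SD, n = 3) in CN and 220 ± 17.6 (SD, n = 3) in PA (exact permutation p = 0.4). The log2 fold change on counts was -0.01 ± 0.11 (SE), with a 95% interval of -0.25 to 0.23 and an adjusted p of 0.972 by edgeR.

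CNN2, the broadly expressed calponin, had a TPM of 1922, 1880 and 1914 in CN1 to CN3 and of 1903, 1938 and 2273 in PA1 to PA3. The 3 CN embryos were nearly equal and PA3 alone stood above the rest. The means were 1906 ± 22.2 (SD, n = 3) in CN and 2038 ± 204 (SD, n = 3) in PA (exact permutation p = 0.3). The log2 fold change on counts was 0.16 ± 0.09 (SE), with a 95% interval of -0.05 to 0.36, an unadjusted p of 0.119 and an adjusted p of 0.376 by edgeR, the smallest of the 5. Without CN1 the fold change was 0.24 on the log2 scale, with an unadjusted p of 0.0125 and an adjusted p of 0.105 by edgeR.

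TPM4, the tropomyosin gene, had a TPM of 6140, 7376 and 6858 in CN1 to CN3 and of 5972, 6046 and 7333 in PA1 to PA3. CN2 and PA3 were the highest and close to each other, PA1 and PA2 were the lowest with CN1 just above them, and the ranges overlapped. The means were 6792 ± 621 (SD, n = 3) in CN and 6451 ± 765 (SD, n = 3) in PA (exact permutation p = 0.5). The log2 fold change on counts was -0.01 ± 0.08 (SE), with a 95% interval of -0.18 to 0.17 and an adjusted p of 0.972 by edgeR.

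**Figure D1:**
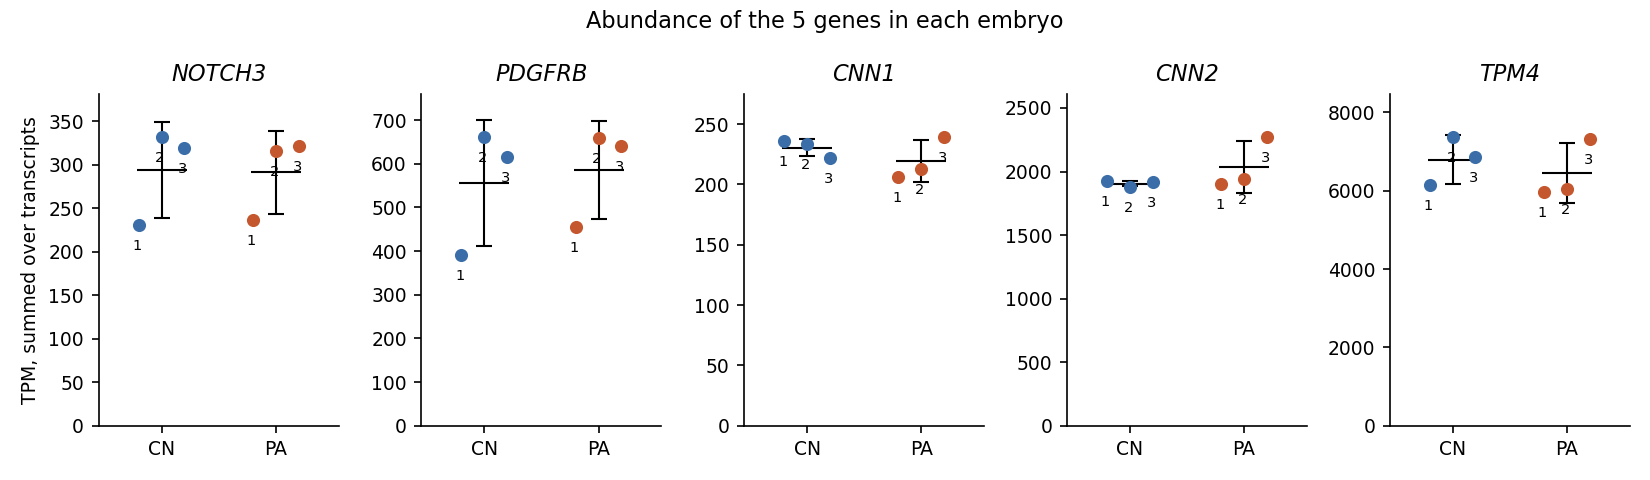
TPM of NOTCH3, PDGFRB, CNN1, CNN2 and TPM4 in each embryo, with a separate vertical axis from 0 for each gene. Points are embryos numbered as in the labels (blue CN, orange PA), horizontal lines are group means and bars are 1 SD (n = 3). The groups overlap for every gene, and embryo 1 is the lowest of its group for NOTCH3 and PDGFRB.

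The intervals bound the differences that these 6 embryos leave possible. All 5 lay within a log2 fold change of -1 to 1, as did those of 78% of all genes tested. The biological coefficient of variation estimated by edgeR was 0.0838 for TPM4, 0.0939 for CNN2, 0.106 for CNN1, 0.109 for NOTCH3 and 0.142 for PDGFRB, against a median of 0.129 over all genes. By TPM over the 6 embryos the coefficient of variation was 6.002% for CNN1 and 7.55% for CNN2, 9.83% for TPM4, 15.8% for NOTCH3 and 20.5% for PDGFRB, against a median of 15.2% on chromosome 2.

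**Figure D2:**
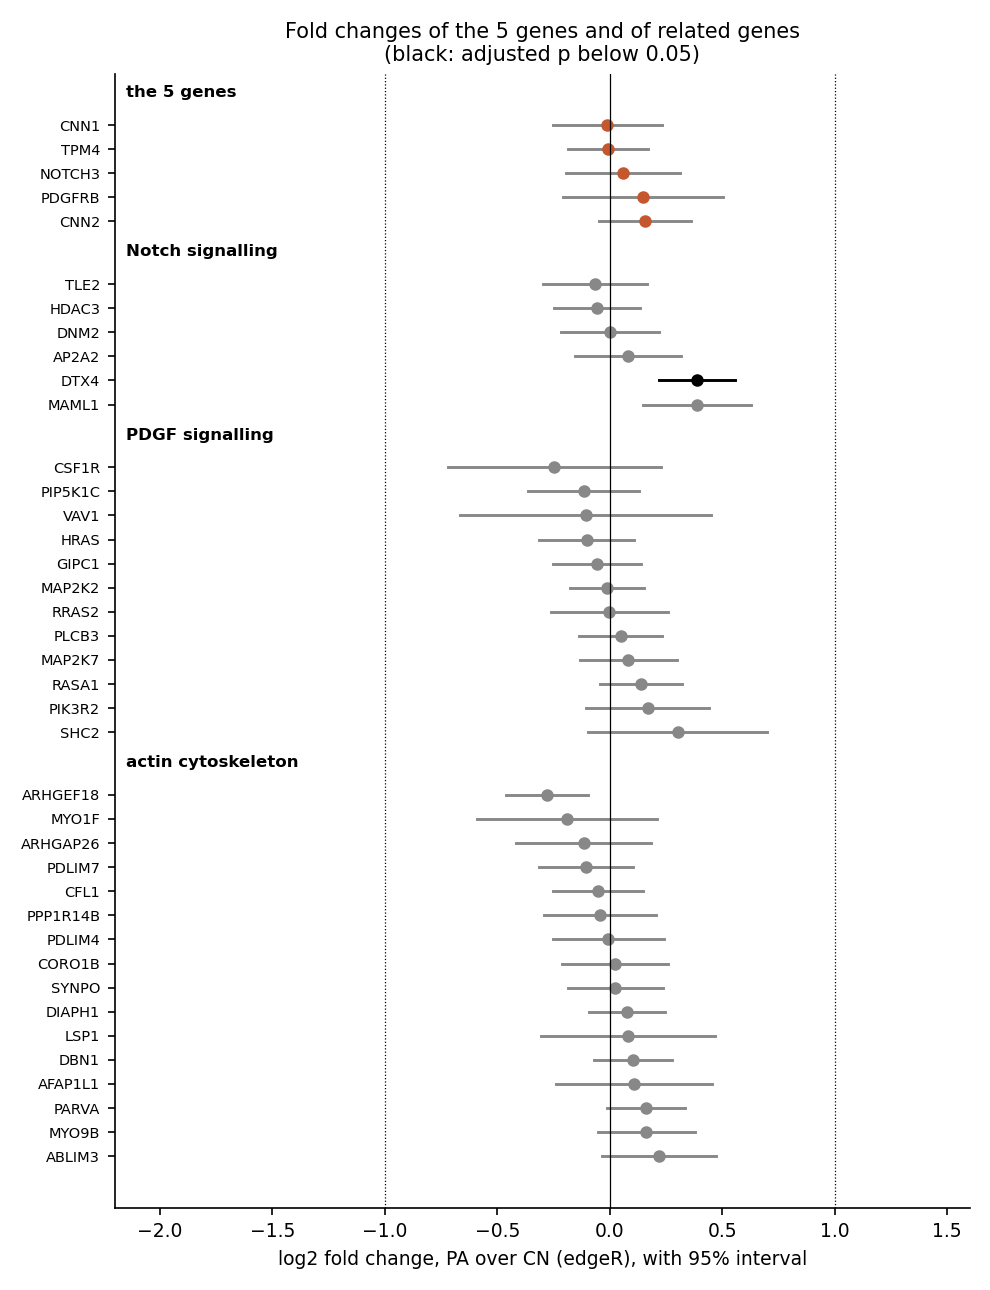
Log2 fold changes PA over CN with 95% intervals by edgeR for the 5 genes (orange) and for tested genes of Notch signalling, PDGF signalling and the actin cytoskeleton (grey, or black where the adjusted p is below 0.05). Dotted lines mark -1 and 1, all 5 orange points lie between -0.01 and 0.16, and DTX4 is the only black point.

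Ratios between the genes within an embryo do not depend on how libraries are scaled. The ratio of CNN1 to CNN2 TPM was 0.123, 0.124 and 0.116 in CN1 to CN3 and 0.108, 0.110 and 0.105 in PA1 to PA3. All 3 PA embryos lay below all 3 CN embryos, although neither gene alone separated the groups. The difference was -0.17 on the log2 scale, and its exact two-sided permutation p of 0.1 is the smallest that 3 against 3 embryos can give (0.3 after Benjamini-Hochberg adjustment over the 3 ratios computed). The estimated counts gave a log2 difference of -0.16, and leaving out each embryo in turn gave -0.20 to -0.15.

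The ratio of NOTCH3 to PDGFRB was 0.588, 0.501 and 0.517 in CN1 to CN3 and 0.518, 0.478 and 0.501 in PA1 to PA3 (exact permutation p = 0.4, adjusted 0.4). CN1 was the highest and the groups overlapped. The ratio of TPM4 to CNN2 was 3.19, 3.92 and 3.58 in CN1 to CN3 and 3.14, 3.12 and 3.23 in PA1 to PA3 (exact permutation p = 0.2, adjusted 0.3). CN1 fell among the PA embryos for this ratio by TPM, at a log2 difference of -0.17. By estimated counts the log2 difference was -0.18 and the groups did not overlap (exact permutation p = 0.1, the smallest possible).

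**Figure D3:**
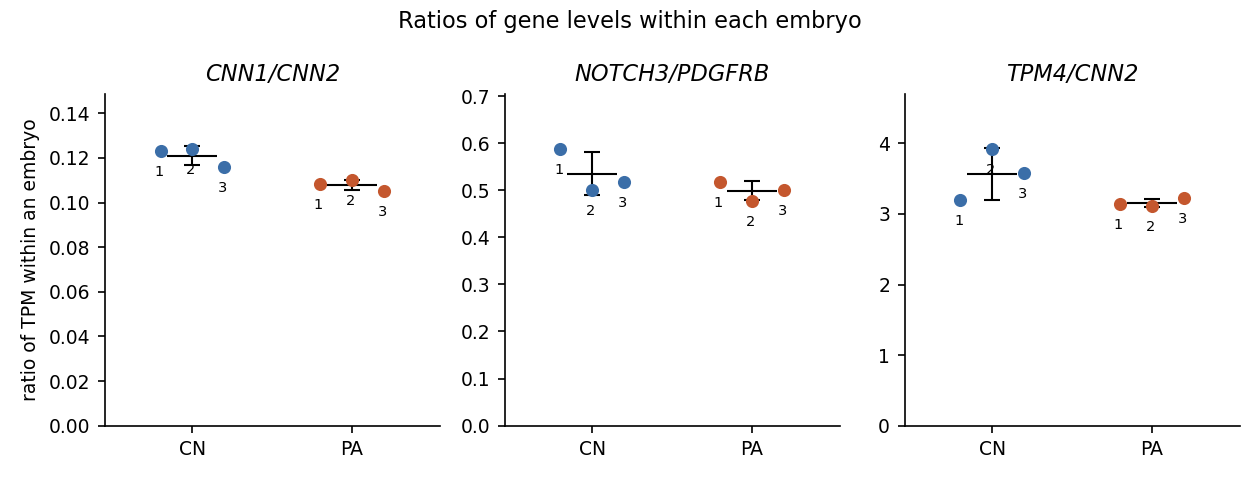
Ratio of TPM between pairs of genes within each embryo, with vertical axes from 0. Points are embryos (blue CN, orange PA), lines are means and bars are 1 SD (n = 3). For CNN1 to CNN2 the PA embryos lie at 0.105 to 0.110 and the CN embryos at 0.116 to 0.124, while the other 2 ratios overlap between groups.

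NOTCH3 and PDGFRB were both lowest in CN1 and PA1. Over the 6 embryos their log2 normalised counts had a Pearson r of 0.981 (exact permutation p = 0.00694, 0.0694 after adjustment over the 10 pairs of the 5 genes). Spearman's rho was 0.829 (exact permutation p = 0.0583, adjusted 0.514). Neither passed after adjustment, and r was 0.953 over the other 4 embryos. CNN1 went the other way, with r of -0.872 against NOTCH3 (exact permutation p = 0.0222, adjusted 0.107) and a rho of -0.60 (exact permutation p = 0.242, adjusted 0.743). Against PDGFRB its r was -0.881 (exact permutation p = 0.0319, adjusted 0.107) and its rho was -0.543 (exact permutation p = 0.297, adjusted 0.743). Both of these relations rested on CN1 and PA1, since r was 0.0880 and 0.221 without them.

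CN1 and PA1 also differed from the other embryos of their groups by transcript length. Of the 281 chromosome 2 genes whose most abundant transcript has 5000 bases or more, 51.2% were lower in both CN1 and PA1 than the mean of the other embryos of the same group. The share was 30.0% for 724 genes of 2000 to 5000 bases and 11.6% for 534 shorter genes. The median log2 difference of the long genes was -0.16 in CN1 and -0.11 in PA1, and that of the short genes was 0.14 and 0.10. NOTCH3, with 8093 bases, differed by -0.29 in CN1 and -0.24 in PA1, and PDGFRB, with 5597 bases, by -0.50 and -0.32. CNN1, with 1456 bases, differed by 0.26 and 0.06, and CNN2, with 1718 bases, by 0.22 and 0.05. TPM4, with 1977 bases, differed by -0.01 and 0.03. The part of transcript length in the low values of NOTCH3 and PDGFRB in CN1 and PA1 was not tested.

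**Figure D4:**
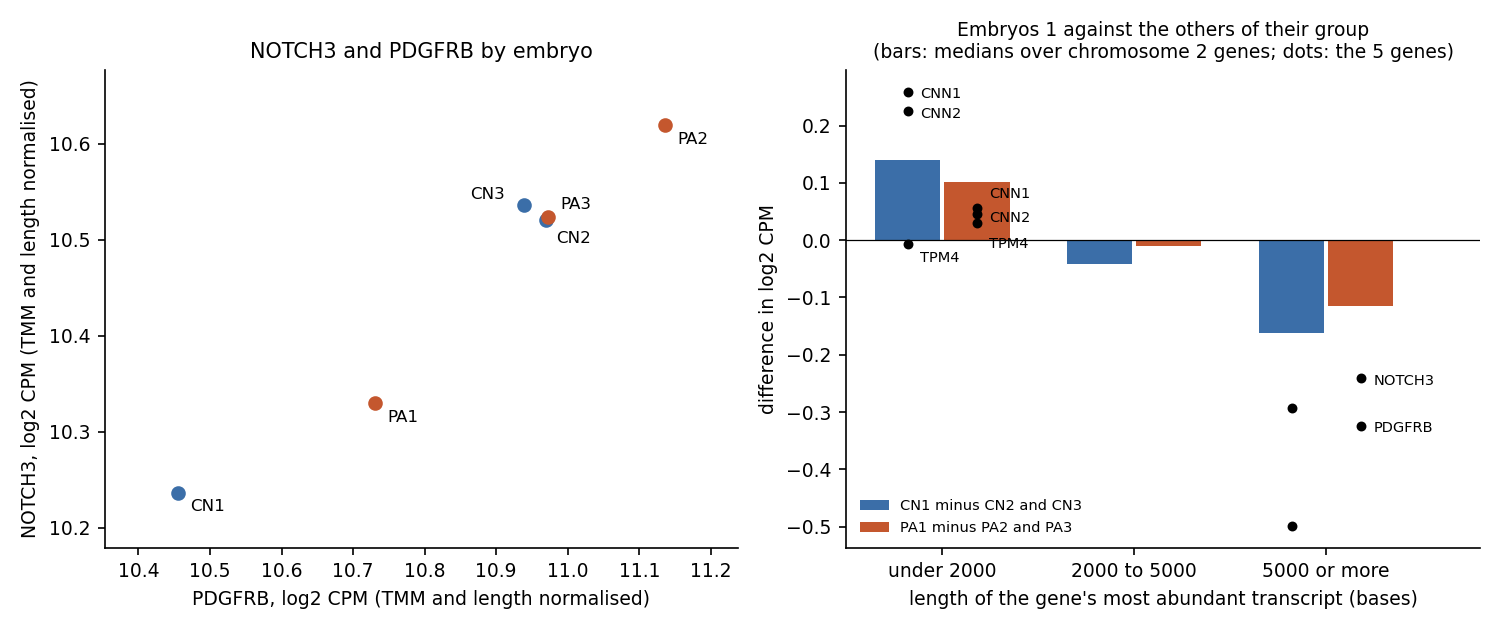
Left, log2 normalised CPM of NOTCH3 against PDGFRB, one point per embryo (blue CN, orange PA). Right, the difference of CN1 and PA1 from the mean of the other embryos of their group in log2 CPM, as medians over chromosome 2 genes by transcript length (bars) and for the 5 genes (dots). CN1 and PA1 lie apart at the low end on the left, and on the right the medians of the long genes, as well as NOTCH3 and PDGFRB, are below 0 in both.

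The genes with the most similar pattern over the 6 embryos are given as a description, by Pearson r of log2 normalised counts among 1538 other chromosome 2 genes. For NOTCH3 they were RASGEF1C (0.998), PDGFRB (0.981) and KANK2 (0.967), and 41 genes exceeded 0.9. For PDGFRB they were AHNAK (0.988), SPRY4 (0.983) and SEMA6A (0.981), with 49 genes above 0.9. CNN1 was followed most closely by ZCCHC10 (0.984), TSG101 (0.9745) and RBM4 (0.973), and CNN2 by TRIM36 (0.970), LOC102159394 (0.959) and PLPPR3 (0.956). Only 7 genes exceeded 0.9 for TPM4, led by LOC110259500 (0.964), BEST2 (0.963) and LOC102165335 (0.942). CNN1 and CNN2 had an r of 0.659 with each other (exact permutation p = 0.142, adjusted 0.354) and a rho of 0.771 (exact permutation p = 0.103, adjusted 0.514).

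Of the genes, 3 have more than 1 annotated transcript. For CNN1, NM_213878.1 encodes 297 amino acids, and the other 2 transcripts start 1112 and 1161 bases downstream and encode 247. Their coding sequence begins in exon 2, as the first 30 coding bases show, with the start codon in capitals.
CNN1, NM_213878.1, exon 1 (chr2:70183431-70183460, plus strand): ATGtcctctgctcacttcaaccgaggcccc
CNN1, XM_013987363.2 and XM_021080565.1, exon 2 (chr2:70185640-70185669, plus strand): ATGgacggcctcaaagatggcatcattctt
CNN2, XM_003353959.3, exon 1 (chr2:77385472-77385501, minus strand): ATGagctccacgcagttcaacaaggggccc

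NM_213878.1, whose window holds no CArG box, carried most CNN1 TPM in every embryo. Its share was 75.6%, 92.1% and 71.6% in CN1 to CN3 and 85.1%, 80.5% and 82.8% in PA1 to PA3 (exact permutation p = 0.7). The CN embryos were more spread than the PA embryos, with an SD of 10.9 against 2.30 percentage points (n = 3 each). The share of XM_013987363.2, which has the box close to its start, was 16.6%, 1.80% and 20.5% in CN1 to CN3 and 8.78%, 11.11% and 9.98% in PA1 to PA3 (exact permutation p = 0.7). These shares rested on 101, 9 and 111 estimated counts in CN and on 50, 61 and 60 in PA. The third transcript held 6.11% to 8.41%. The 3 transcripts share 6 identical exons, so Salmon assigns most of their reads by model, and the shares are estimates. Over the coding sequence, CNN1 and CNN2 were identical at 68.5% of 891 aligned bases, but they shared 0 stretches of 31 bases, so few reads could be placed on both.

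For TPM4, XM_021081566.1 carried 60.3% to 62.6% of TPM and NM_214335.1 carried 37.3% to 39.6% in the 6 embryos. The shares of XM_021081566.1 were 61.6%, 62.6% and 60.3% in CN1 to CN3 and 60.3%, 61.9% and 60.4% in PA1 to PA3, and the groups overlapped (exact permutation p = 0.7). By estimated counts instead of TPM, XM_021081566.1 held 80.0% to 81.5%, because it is 1977 bases long and NM_214335.1 is 853. The annotation of NM_214335.1 ends 1252 bases before that of the other 2, so reads near the 3′ end can only be given to the longer forms. The first exon of XM_021081566.1 has 4 bases, the only ones that XM_005661198.1 lacks. The shares are therefore estimates and do not by themselves show which start or protein form was the main one. NM_214335.1 encodes 248 amino acids and XM_021081566.1 encodes 158. The third, XM_005661198.1, encodes 284 amino acids, and its start is the one with a CArG box. It had 56, 30 and 40 estimated counts in CN1 to CN3 and 103, 72 and 40 in PA1 to PA3, or 0.0998% to 0.346% of TPM (exact permutation p = 0.3). PA1 was the highest, and PA3 lay among the CN embryos. The first 30 coding bases of the 3 forms differ, with the start codon in capitals.
TPM4, XM_005661198.1, exon 1 (chr2:61476561-61476590, minus strand): ATGgaggccatcaagaagaagatgcagatg
TPM4, NM_214335.1, exon 1 (chr2:61470638-61470667, minus strand): ATGgctggcctcaactccctggaggcggtg
TPM4, XM_021081566.1, exon 3 (chr2:61463471-61463500, minus strand): ATGaaggtgatagaaaaccgggccatgaaa

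For PDGFRB, XM_021085013.1 carried 95.4% to 100% of TPM. The other form, XM_021085014.1, starts 15532 bases downstream and has the same coding sequence of 3318 bases. It had 0, 143 and 251 estimated counts in CN1 to CN3 and 21, 336 and 180 in PA1 to PA3. CN1 and PA1, the embryos with the lowest PDGFRB, also had the least of this form (exact permutation p = 0.7 for its share between groups). NOTCH3 and CNN2 have 1 annotated transcript each.

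**Figure D5:**
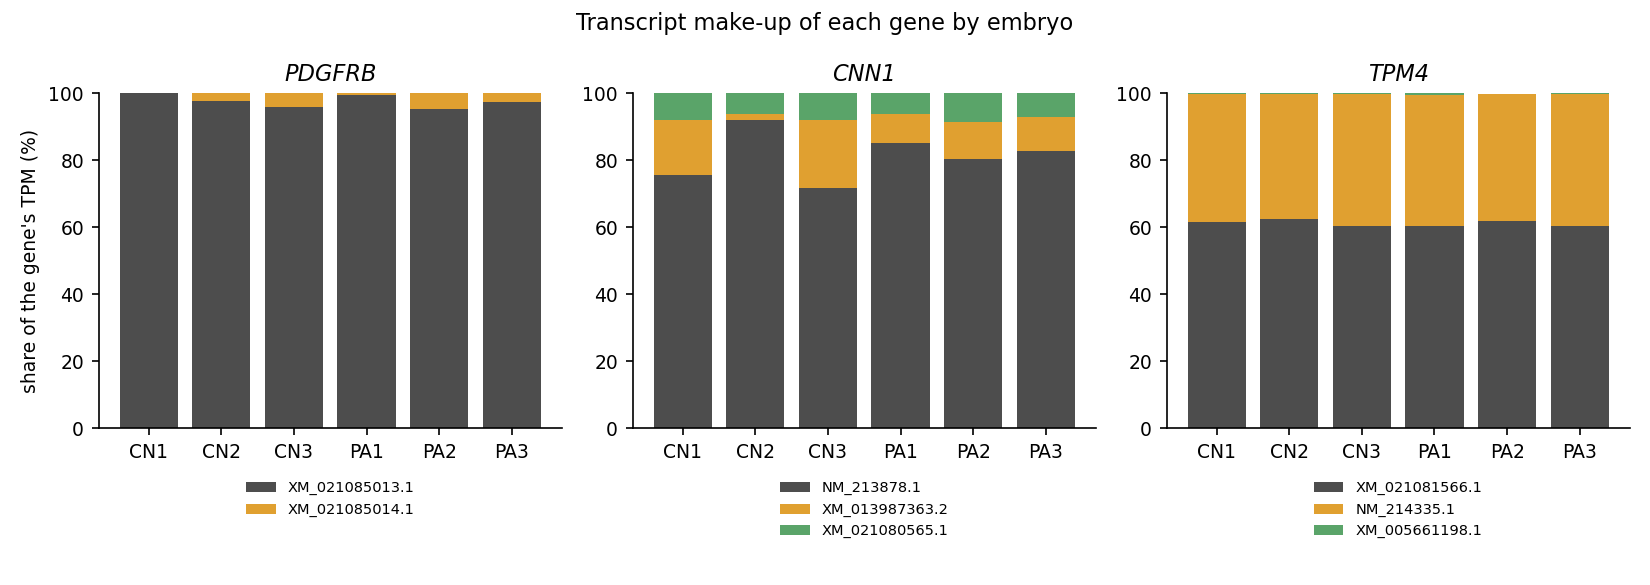
Share of each gene's TPM (%) held by its annotated transcripts in each embryo for PDGFRB, CNN1 and TPM4. The bars add to 100%, CN2 has the largest share of NM_213878.1 in CNN1 (92.1%), and the TPM4 shares stay between 60.3% and 62.6% for XM_021081566.1.

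The levels of most relatives of the 5 genes could not be read from these tables. NOTCH1, NOTCH2, NOTCH4, PDGFRA, KIT, CNN3, TPM2 and TPM3, all on other chromosomes, were listed at 0, and TPM1 had at most 1 count, as was usual off chromosome 2. PDGFRB shared 2 of its 6013 stretches of 31 bases with CSF1R, which had up to 951 counts and a log2 fold change of -0.25 ± 0.21 (SE, adjusted p = 0.545 by edgeR).

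Of 18 genes looked up for Notch signalling, 7 were found under their symbols on chromosome 2 and 6 were tested. Of these, 1 was higher and 0 lower in PA, with a median log2 fold change of 0.04 against 0.02 over all genes tested. The gene that rose was DTX4, a Deltex family ubiquitin ligase that acts on Notch receptors. Its TPM was 167, 210 and 203 in CN1 to CN3 and 215, 244 and 264 in PA1 to PA3, and all PA embryos lay above all CN embryos. Its log2 fold change was 0.39 ± 0.07 (SE), with an adjusted p of 0.0194 by edgeR. The call was lost without CN2, CN3, PA2 or PA3 (adjusted p of 0.0752, 0.0548, 0.0743 and 0.0651) and with library totals in place of TMM factors (0.0845). Its log2 fold change stayed between 0.36 and 0.43 without each single embryo and was 0.33 with library totals. MAML1, a coactivator of the cleaved receptor, had a log2 fold change of 0.39 ± 0.11 (SE) that did not pass (adjusted p = 0.0691 by edgeR), and its groups overlapped. Without PA1 it passed, with an adjusted p of 0.0401 by edgeR, as it did by DESeq2 (0.0240), without a filter on low counts and without CN1 and PA1 together. AP2A2, an endocytic adaptor subunit and the most abundant by count of the list genes found under their symbols, had a log2 fold change of 0.08. The ligands JAG1, JAG2, DLL1 and DLL4 and the targets HES1, HEY1 and HEYL lie on other chromosomes and were listed at 0.

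Of 17 genes of PDGF signalling, 12 lie on chromosome 2, and 0 of the 12 tested were called in either direction, with a median of -0.01. PIK3R2, a regulatory subunit of PI3 kinase and the gene of that list with the highest counts, had a log2 fold change of 0.17 ± 0.12 (SE, adjusted p = 0.472 by edgeR). Of 24 genes of the actin cytoskeleton, 16 were tested and 0 were called, with a median of 0.02. CFL1, which encodes the actin-severing protein cofilin 1 and has the highest counts of that list, had a TPM of 11007 to 12955 in PA and of 12380 to 13324 in CN.

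Lists of other cell types were counted beside the 5 genes. Over all genes tested, 2.12% were called higher and 4.42% lower in PA. Of 6 tested endothelial genes 2 were lower in PA, namely PLVAP, which forms diaphragms of fenestrated endothelium (log2 fold change -0.36 ± 0.08 SE, adjusted p = 0.0402 by edgeR), and KLF2, a transcription factor induced by blood flow (-0.68 ± 0.12 SE, adjusted p = 0.0129). The PLVAP call was lost without any 1 of the 6 embryos (adjusted p from 0.0535 to 0.163), and the KLF2 call without CN2 (0.0794) or CN3 (0.0623). Over the fits without 1 embryo the log2 fold changes stayed at -0.41 to -0.28 for PLVAP and at -0.73 to -0.59 for KLF2. ICAM1, an adhesion molecule for leukocytes, had a log2 fold change of 0.42 ± 0.15 (SE) that did not pass (adjusted p = 0.136 by edgeR), although its TPM of 71.6 to 93.4 in PA lay above the 55.2 to 66.6 of CN. ANGPTL4, a secreted inhibitor of lipoprotein lipase, had a log2 fold change of 0.34 ± 0.32 (SE, adjusted p = 0.584). The median of the list was -0.14, with 2 of 6 positive, and its summed TPM was 1681 to 2107 in CN and 1460 to 1555 in PA. PLVAP made up most of these sums, with a TPM of 1095 to 1337 in CN and 838 to 973 in PA. Of 9 tested striated muscle genes 3 were lower and 0 higher, with a median log2 fold change of -0.75. They were TNNI2, a fast skeletal troponin (-1.34, adjusted p = 0.00169 by edgeR), PYGM, the muscle glycogen phosphorylase (-1.02, adjusted p = 0.00493), and MYBPC3, the cardiac myosin-binding protein (-0.98, adjusted p = 0.00677). All 3 calls held without each single embryo. That of MYBPC3 was lost without CN1 and PA1 together (adjusted p = 0.0510 by edgeR), at a log2 fold change of -1.03. MEF2C, a myogenic transcription factor with the highest counts of the list, had a log2 fold change of -0.04. Their list summed to 1530 to 1683 TPM in CN and 852 to 1086 in PA.

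Of 9 tested genes of mesenchyme and extracellular matrix 0 were called, with a median of 0.22, a log2 fold change of 0.18 for VCAN, the matrix proteoglycan with the highest counts, and a summed TPM of 4461 to 6100 in CN and 4828 to 7008 in PA. Of 6 macrophage genes 0 were called, with a median of -0.24 and sums of 638 to 1030 in CN and 455 to 784 in PA. Of 4 erythroid genes 0 were called, with a median of -0.13 and 0 positive log2 fold changes. For 3 of them the TPM ranges did not overlap, against 21.6% of all genes tested. KLF1 had a log2 fold change of -0.74, with a 95% interval of -1.31 to -0.17 and an adjusted p of 0.127 by edgeR. PRDX2, an antioxidant enzyme abundant in red cells, had a log2 fold change of -0.13. It made up most of the summed TPM of 7913 to 9370 in CN and 7321 to 7670 in PA. The part of these other cell types in the values of the 5 genes was not tested.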

How the data were processed

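RNA of 3 PA and 3 CN whole pig embryos had been made into TruSeq RNA libraries. No strand selection is stated. Per the study's methods, the authors quantified reads with Salmon 1.3.0 in mapping-based mode. They deposited estimated counts, which are not normalized, and TPM values, which are scaled to the same sum in each embryo. Each transcript was assigned to its gene in the NCBI annotation (Sscrofa11.1). The 39 names without an entry were kept as features of their own. Estimated counts were summed per gene, rounded and tested in R 4.3.3 with edgeR 4.0.16 (TMM factors, an average transcript length offset as tximport computes it, filterByExpr at a minimum count of 10 and total of 15, robust quasi-likelihood test, two-sided, Benjamini-Hochberg adjustment over 1652 genes). The study used DESeq2, which served as an alternative (1.42.0). TPM, ratios and shares were compared between groups by exact permutation, TPM on a log2 scale with a pseudocount of 0.1. Normalised counts for correlations used a prior count of 1. The code was tested on simulated data.

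The 5 genes and all gene lists were chosen with earlier results of these data known. Named genes are the 5 genes, list genes that passed, the gene of each list with the highest counts, relatives and partners needed to read a member (MAML1 among them), and the 3 most similar genes per member. ICAM1, ANGPTL4 and KLF1 were named after their values were seen, and the length comparison of CN1 and PA1 was added after the data were seen. TLE5, PDGFB and MYH3 had no entry under those symbols and were not searched for under other names. The counts, medians and highest-count genes of the lists leave them out. Sequences are from the RefSeq genome. Alternatives were DESeq2, other scalings and filters, the replicate block and leaving out embryos. The columns of 0 samples lay outside the series.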

Additional observations from a re-analysis of the deposited data

How the results depend on the processing

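Of the 5 genes 0 were called under any alternative run. Exact tests of TPM, ratios and shares could not pass the threshold under any alternative, so they are given by their values. The TPM difference of NOTCH3 (log2, PA minus CN) was -0.01 and became 0.022 without the abundant transcript that has no annotation entry and IGF2 and 0.060 after rescaling by TMM factors. The log2 fold change of CNN1 became 0.0059 and that of TPM4 3.4e-05 without the length offset, and CNN1 became 0.068 without CN1 and PA1 together, a choice made after the data were seen. The number of genes called among all tested was 108, with 173 by DESeq2, 196 without a filter on low counts and 231 without CN1 and PA1 together.

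Leaving out each embryo in turn gave log2 fold changes of -0.025 to 0.14 for NOTCH3, 0.01 to 0.26 for PDGFRB, -0.044 to 0.089 for CNN1, 0.11 to 0.24 for CNN2 and -0.029 to 0.035 for TPM4. TPM differences ranged from -0.17 to 0.14 for NOTCH3 and from -0.14 to 0.26 for PDGFRB. They ranged from -0.14 to -0.029 for CNN1, from 0.011 to 0.14 for CNN2 and from -0.17 to -0.015 for TPM4. PA minus CN differences in transcript share ranged from -1.02 to 9.21 percentage points for NM_213878.1 and from -1.55 to 0.563 for XM_021085013.1. The genes called among all ranged from 48 to 128. The log2 fold change turned sign for NOTCH3 without CN1 or PA2, for CNN1 without CN1, PA2 or PA3 and for TPM4 without CN2, CN3 or PA2. The TPM difference turned for NOTCH3 without CN2, CN3 or PA1 and for PDGFRB without CN1 or PA2. The causes were not tested.

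The labels number the embryos 1 to 3 in both groups but state no pairing. Deviations from the group mean correlated at 0.275, 0.133 and 0.0544 between same-numbered embryos and at -0.258 to 0.178 between differently numbered ones. CN1 and PA1 were the most alike. The other same-numbered pairs lay within the range of the differently numbered ones, so the numbers were not taken to pair embryos. With the replicate block the log2 fold changes were 0.06 for NOTCH3, 0.16 for PDGFRB, -0.01 for CNN1, 0.16 for CNN2 and -0.01 for TPM4, with adjusted p-values by edgeR of 0.643, 0.301, 0.979, 0.274 and 0.963, and 104 of all genes were called. Of MAML1, DTX4, PLVAP, KLF2, TNNI2, MYBPC3 and PYGM, the list genes fitted with the block, MAML1 changed its call and passed with an adjusted p of 0.0323 by edgeR.

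With 3 embryos per group, exact tests cannot reach a p below 0.1. Gene-level counts of the 5 genes were at least 537. The rarer CNN1 and PDGFRB forms rest on as few as 9 and 0 counts in single embryos, and the rarest TPM4 form on 30. Intervals and floors cover counting error only where they come from counts of 1 library.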
